A study of Mus musculus with 4 samples.

Results

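The genes described here are 10 members of the FoxO and muscle atrophy programme, out of 21887 protein-coding genes: the transcription factor genes Foxo1, Foxo3 and Foxo4, the ubiquitin ligase genes Trim63, Fbxo32, Fbxo30 and Nedd4, and the stress and turnover genes Gadd45a, Ddit4 and Zfand5. For each gene, every peak that overlapped the RefSeq gene body plus 5 kb on each side was taken from the authors' 4 peak lists. The genes were chosen by name on the presence of PHF2 peaks in these same lists, so counts of peaks at them are descriptions and support nothing by themselves. The assay was CUT&RUN, which releases the DNA near an antibody's target with a tethered nuclease, on gastrocnemius muscle of 4-week-old male C57BL/6 mice. The KO muscle was Phf2 flox/flox;Acta1 Cre+ and the Ctrl muscle was Phf2 flox/flox;Acta1 Cre-, so both carried floxed Phf2 and the genotypes differed in the Cre. The Acta1 promoter drives Cre in muscle fibres, and the other cells of the muscle keep Phf2. Each genotype had 1 library made with an antibody against PHF2 and 1 made with IgG as the background control. No group had a replicate, so each comparison describes these libraries and no test across samples was possible.

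The lists held 161 peaks for KO PHF2, 1621 for Ctrl PHF2, 152 for KO IgG and 77 for Ctrl IgG, and total read numbers are unknown. Phf2 itself (Gene ID 18676, chr13:48801750-48870885) had no PHF2 peak within its body plus 5 kb in KO or Ctrl muscle. It had 1 KO IgG peak (fold enrichment 8.59) and no Ctrl IgG peak. The lists show neither loss of the gene nor expression, so the genotype and tissue labels were not checked. Of marker genes of fibres, 0 of 11 had a KO PHF2 peak and 3 of 11 a Ctrl PHF2 peak (Des, Ttn and Pvalb), where the shares over all protein-coding genes were 0.713% and 7.38%. Markers of endothelial, immune, fibro-adipogenic, satellite, smooth muscle and Schwann cells had no KO PHF2 peak either. In the Ctrl PHF2 list 2 of 6 endothelial markers (Flt1 and Cdh5) and 1 of 5 immune markers (the macrophage gene Cd68) had one. No marker of fibro-adipogenic (of 5), satellite (of 5), smooth muscle (of 4) or Schwann cells (of 4) did. A peak in whole muscle does not tell which cells it came from, and fewer cells with bound PHF2 and less PHF2 per cell cannot be told apart.

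FoxO factors are forkhead transcription factors held out of the nucleus by AKT when insulin or IGF signalling is high. On fasting, disuse or denervation they enter the nucleus and raise muscle ubiquitin ligases, above all Trim63 (MuRF1) and Fbxo32 (atrogin-1), which mark proteins for the proteasome. PHF2 is a JmjC domain protein whose PHD finger binds histone H3 trimethylated at lysine 4, a mark of active gene starts and of CpG-rich promoters.

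At these genes 9 of the 12 Ctrl peaks covered a start (for Fbxo32, the nearer gene end), and 1 of the 3 KO peaks did. The 250 bases before the annotated start are therefore shown for some of the genes. These are the 3 genes with a peak in both PHF2 lists (Foxo1, Foxo3 and Ddit4) and the gene with the highest fold enrichment (Zfand5). Trim63 is shown too, as its promoter had the fewest CpG dinucleotides among the genes described here that have a promoter entry. Sequences are from RefSeq (GRCm38.p6, the assembly behind mm10) and run 5′ to 3′ in the direction of the gene, and the capitals mark CpG dinucleotides.
Foxo1 (chr3:52268087-52268336, + strand, 20 CpG): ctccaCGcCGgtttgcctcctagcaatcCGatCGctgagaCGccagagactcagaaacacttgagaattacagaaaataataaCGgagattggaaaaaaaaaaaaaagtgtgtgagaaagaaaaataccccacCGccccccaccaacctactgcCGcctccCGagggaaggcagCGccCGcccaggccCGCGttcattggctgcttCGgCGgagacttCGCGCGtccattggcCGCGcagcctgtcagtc
Foxo3 (chr10:42276696-42276945, - strand, 31 CpG): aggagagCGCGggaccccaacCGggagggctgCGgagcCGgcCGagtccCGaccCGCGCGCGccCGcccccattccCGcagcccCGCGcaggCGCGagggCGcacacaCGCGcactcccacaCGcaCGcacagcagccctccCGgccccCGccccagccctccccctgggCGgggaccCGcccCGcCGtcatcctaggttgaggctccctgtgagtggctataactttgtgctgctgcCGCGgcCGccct
Ddit4 (chr10:59951771-59952020, - strand, 22 CpG): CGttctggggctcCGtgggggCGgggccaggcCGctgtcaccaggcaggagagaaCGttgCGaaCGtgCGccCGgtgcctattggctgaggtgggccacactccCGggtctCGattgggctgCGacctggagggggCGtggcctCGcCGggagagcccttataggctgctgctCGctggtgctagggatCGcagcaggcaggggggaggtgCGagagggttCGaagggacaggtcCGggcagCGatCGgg
Zfand5 (chr19:21272028-21272277, + strand, 35 CpG): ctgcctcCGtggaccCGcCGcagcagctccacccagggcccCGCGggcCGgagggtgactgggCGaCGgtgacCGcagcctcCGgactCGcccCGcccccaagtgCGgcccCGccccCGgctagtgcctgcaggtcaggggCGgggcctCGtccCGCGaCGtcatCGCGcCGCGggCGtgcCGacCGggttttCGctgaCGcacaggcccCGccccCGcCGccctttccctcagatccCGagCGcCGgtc
Trim63 (chr4:134314870-134315119, + strand, 4 CpG): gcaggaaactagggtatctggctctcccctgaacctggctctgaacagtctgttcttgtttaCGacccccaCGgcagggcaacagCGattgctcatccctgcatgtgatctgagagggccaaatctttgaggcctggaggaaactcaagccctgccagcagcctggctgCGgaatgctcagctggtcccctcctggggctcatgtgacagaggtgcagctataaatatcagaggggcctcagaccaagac
Of the 10 genes, 8 had an entry in the promoter table, and Fbxo32 and Foxo4 had none. The starts of Fbxo30 and Zfand5 in that table, and the 250 bases before each, lie inside the gene bodies given below. So does the second start of Nedd4.

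A KO PHF2 peak was called at 3 of the 10 genes, Foxo1, Foxo3 and Ddit4, and a Ctrl PHF2 peak at 9, all but Foxo4. Of all protein-coding genes, 0.713% had a KO PHF2 peak and 7.38% a Ctrl PHF2 peak in the same window. The Ctrl list is the longer one. Shortened to its 161 strongest peaks, as many as in KO, it had a peak at 3 of the 10 genes (Foxo1, Foxo3 and Zfand5), with 3 peaks in all. This cut sets the lists to equal length, and the share over all genes after it was not computed. When Ctrl peaks only had to reach the −log10 p of the weakest KO peak, 9 genes and 12 peaks remained. Each of the 3 genes with a KO peak also had a Ctrl peak (0.576% of all genes). This was usual too: of all 156 protein-coding genes with a KO peak, 126 also had a Ctrl peak. The other 6 genes with a Ctrl peak had no KO peak (6.8% of all genes). Trim63, Fbxo32, Fbxo30, Nedd4, Gadd45a and Zfand5 made up this second group, so none of the 4 ubiquitin ligase genes had a KO peak. To lack one was usual: of all 1615 protein-coding genes with a Ctrl peak, 126 (7.80%) also had a KO peak. There were 3 KO peaks and 12 Ctrl peaks at the genes in all, since Foxo3, Trim63 and Nedd4 had 2 Ctrl peaks each (1.08% of all genes had 2 or more). No gene had an IgG peak of either genotype (0.155% of all genes in KO IgG and 0.064% in Ctrl IgG).

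**Figure D1:**
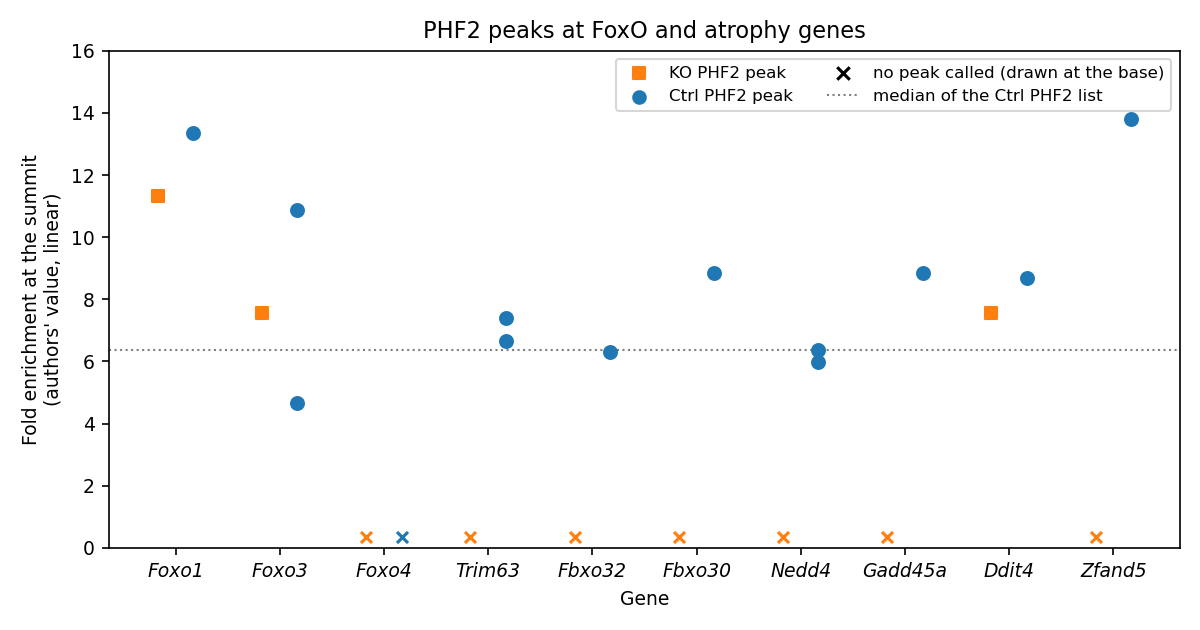
Fold enrichment at the summit (linear, the authors' value) of each PHF2 peak at the 10 genes, with KO on the left and Ctrl on the right for each gene; a cross at the base marks that no peak was called and is not a measured 0. KO peaks appear at Foxo1, Foxo3 and Ddit4, each below the highest Ctrl peak of the same gene, and 9 of the 12 Ctrl peaks lie above the median of the Ctrl PHF2 list, 6.37.

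The FoxO genes differed among themselves. Foxo1 (Gene ID 56458, chr3:52268337-52350109), a main FoxO factor of muscle, had 1 peak in each PHF2 list. In KO muscle the peak ran over 938 bp, chr3:52269259-52270196, with a −log10 q of 11.5. Its fold enrichment over the caller's local background, with 1 added to both signal and background, was 11.3. The Foxo1 peak in Ctrl muscle ran over 2866 bp, chr3:52267579-52270444, with a fold enrichment of 13.3 and a −log10 q of 18.5. The peaks ranked 4 of 161 by fold enrichment in the KO list and 16 of 1621 in the Ctrl list, so Foxo1 stood near the head of both. The number of tags (sequenced fragments) at each summit, recovered from the authors' fold enrichment and p, was 24 in KO (exact Poisson 95% interval 15.4 to 35.7) and 31 in Ctrl (21.1 to 44.0). The intervals overlap, and the ratio of KO to Ctrl tags was 0.774 with an exact interval of 0.435 to 1.36. This ratio compares each list's own summit, not a single site, and KO tags at the Ctrl summit were not measured. The summits lay apart: the KO summit was 1578 bp into the gene from its start and the Ctrl summit 310 bp, a distance of 1268 bp. The KO peak lay wholly inside the Ctrl peak, covered 32.7% of it and did not reach the start or the promoter sequence shown, which the Ctrl peak covered over all 250 bases.

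Foxo3 (Gene ID 56484, chr10:42181845-42276695), which on activation raises both ligase and autophagy genes in muscle, had a KO peak of 293 bp at chr10:42276433-42276725 with a fold enrichment of 7.55 and 15 tags (8.40 to 24.7). In Ctrl muscle the overlapping peak spanned 1598 bp, chr10:42275865-42277462, with a fold enrichment of 10.9 and 24 tags (15.4 to 35.7). Here the summits were 121 bp apart, 63 bp into the gene in KO and 184 bp in Ctrl, and both peaks covered the start. The KO to Ctrl tag ratio was 0.625 (0.305 to 1.24), so the difference is within counting error. Foxo3 also had a narrow Ctrl peak of 292 bp upstream, chr10:42277633-42277924, with its summit 1166 bp before the start, which no KO peak overlapped. Its fold enrichment of 4.65 ranked 1518 of 1621. It had 14 tags (7.65 to 23.5), at a local background of 1.17 scaled tags, against 0.526 under the main peak.

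Foxo4 (Gene ID 54601, chrX:101254261-101260873) had no peak in any list. The nearest KO PHF2 peak on the X chromosome was 2117 kb away, at Efnb1, and the nearest Ctrl PHF2 peak 1383 kb away, at Phka1. A peak too weak to be called would not be detectable from the lists.

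**Figure D2:**
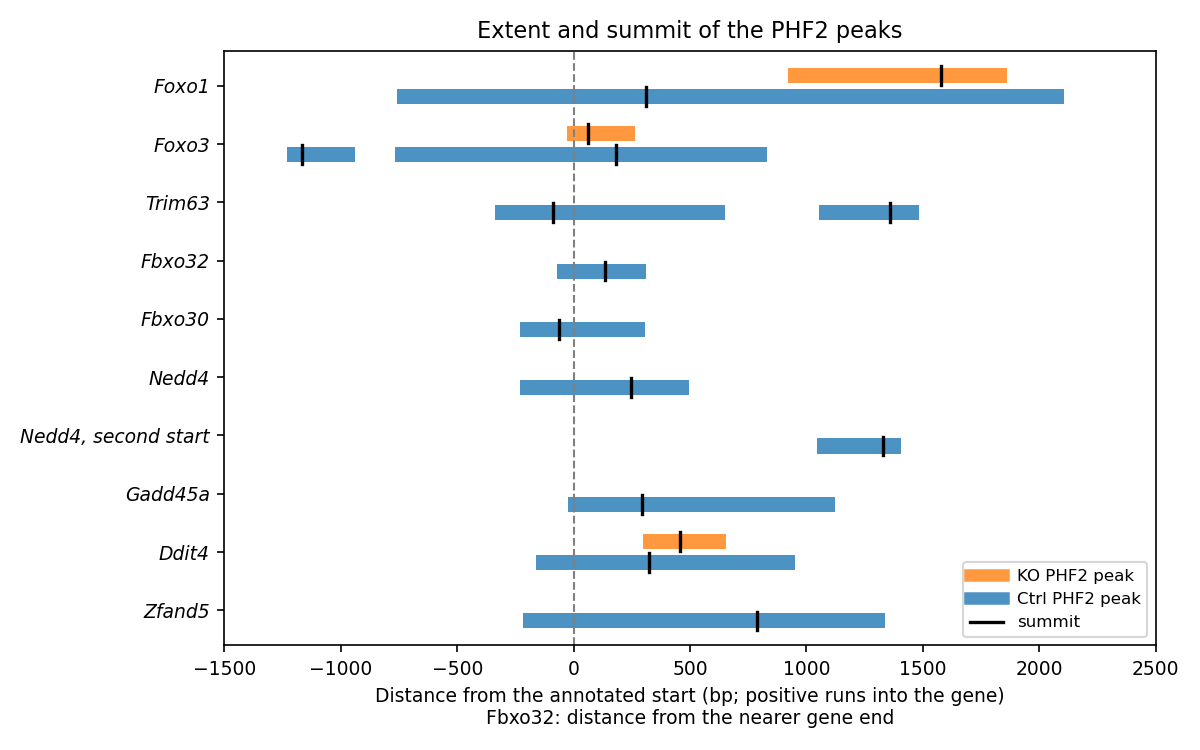
Extent of each PHF2 peak (bars, KO above Ctrl) and its summit (black line) in bp from the annotated start of the gene, positive into the gene; for Fbxo32 the distance is from the nearer gene end, and Foxo4 is left out because it had no peak. The KO bars at Foxo1, Foxo3 and Ddit4 lie inside wider Ctrl bars, and the KO summit at Foxo1 sits 1268 bp further into the gene than the Ctrl summit.

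All 4 ubiquitin ligase genes had Ctrl peaks and no KO peak. By fold enrichment these Ctrl peaks ranked from 164 (Fbxo30) to 944 (Nedd4) of 1621. Trim63 (Gene ID 433766, chr4:134315120-134329629), the MuRF1 ligase of the sarcomere's thick filament proteins, had 2 Ctrl peaks 404 bp apart. One, of 987 bp at chr4:134314784-134315770, covered the start and the whole promoter sequence shown, with its summit 87 bp before the start. The other, of 428 bp at chr4:134316175-134316602, had its summit 1360 bp into the gene. The peak at the start had the higher fold enrichment, 7.41 against 6.67, and fewer tags, 14 (7.65 to 23.5) against 19 (11.4 to 29.7). The local background was 0.361 scaled tags at the start and 1 inside the gene. The tag intervals overlap, so the peaks cannot be ranked by tags.

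Fbxo32 (Gene ID 67731, chr15:58175879-58214892), the F-box protein atrogin-1 of an SCF ligase, had 1 Ctrl peak of 380 bp at chr15:58214583-58214962, across the upper end of the gene. With a fold enrichment of 6.31, just below the list's median of 6.37, and 13 tags (6.92 to 22.2), it was among the weaker ones. Fbxo30 (Gene ID 71865, chr10:11281330-11305750), known as MUSA1, an F-box gene raised in denervated muscle, had 1 Ctrl peak of 535 bp at chr10:11281358-11281892. Its fold enrichment of 8.84 with 17 tags (9.90 to 27.2) was the highest among the ligases. The summit lay 65 bp before the start used (chr10:11281587), the closest of the 12, and inside the gene body. Nedd4 (Gene ID 17999, chr9:72662331-72749851), a HECT-domain ligase, had 2 Ctrl peaks 31.5 kb apart, and the table gives it 2 starts. One peak (729 bp, chr9:72662099-72662827) covered the first start, with a fold enrichment of 6.37. The other (362 bp, chr9:72694344-72694705) began 1046 bp past the second start, at a fold enrichment of 5.99. Both summits had 12 tags (6.20 to 21.0), the fewest of the 12 Ctrl peaks.

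The stress and turnover genes held the strongest Ctrl peak without a KO peak. Zfand5 (Gene ID 22682, chr19:21271786-21286840), a zinc finger gene that aids proteasome activity and is raised in atrophy, had 1 Ctrl peak of 1553 bp at chr19:21272062-21273614. Its fold enrichment of 13.8 ranked 7 of 1621, above Foxo1. The summit of 29 tags (19.4 to 41.6) was 786 bp past the start used, chr19:21272278, which lies inside the gene body. Part of this peak also lies over the gene model LOC115489044, and the list cannot assign it to one of them. Gadd45a (Gene ID 13197, chr6:67035096-67037407), a stress gene induced through ATF4 in muscle atrophy, had 1 Ctrl peak of 1145 bp at chr6:67036286-67037430. Its fold enrichment was 8.83 with 20 tags (12.2 to 30.9), its summit lay 294 bp into the gene, and the lncRNA gene E230016M11Rik lies under the same peak. Both genes lacked a KO peak.

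Ddit4 (Gene ID 74747, chr10:59949675-59951770), or REDD1, an inhibitor of mTORC1 raised by glucocorticoids and hypoxia, had a peak in both lists. In KO muscle it was 357 bp wide, chr10:59951116-59951472, with a fold enrichment of 7.55 and 15 tags (8.40 to 24.7). In Ctrl muscle it was 1113 bp wide, chr10:59950818-59951930, with 8.67 and 20 tags (12.2 to 30.9). The ratio of KO to Ctrl tags was 0.750 (0.357 to 1.54), within counting error, and the summits were 132 bp apart, 455 bp into the gene in KO and 323 bp in Ctrl. As at Foxo1, the KO peak did not reach the start, whereas the Ctrl peak covered it.

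At Foxo1, Foxo3 and Ddit4 alike, the KO peak was narrower than the Ctrl peak and lay wholly inside it, with widths of 32.7%, 18.3% and 32.1% of the Ctrl width. Over all 122 KO PHF2 peaks with a Ctrl overlap, these included, the median was 39.3% (quartiles 25.3% and 73.8%). The distance between summits was 1268 bp at Foxo1, against a median of 276 bp over those 122 pairs (quartiles 123 and 532 bp). The KO to Ctrl tag ratios of 0.774, 0.625 and 0.750 stood beside a median of 0.706 over the 122 pairs (quartiles 0.573 and 0.863). Only sites with a called KO peak, whose lowest summit had 10 tags, enter these ratios. Sites with fewer KO tags are left out, so the ratios do not measure the KO effect over all Ctrl sites. The KO library was estimated at 1.01 times the size of the Ctrl library, so the ratios were not scaled.

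**Figure D3:**
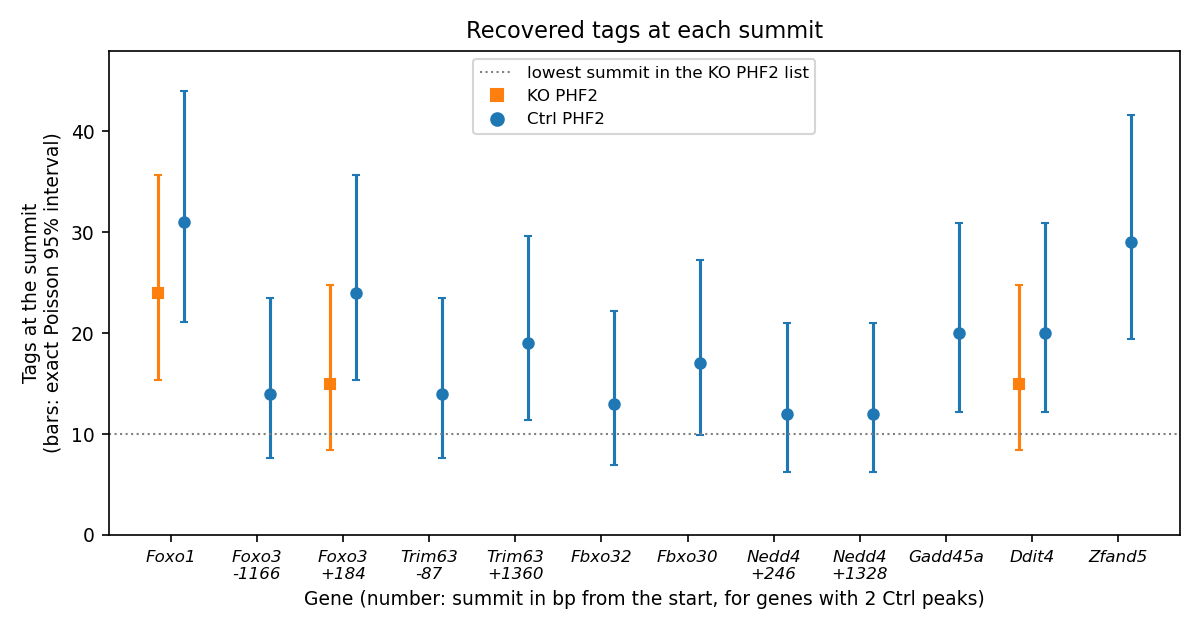
Tags at the summit of each PHF2 peak (points) with exact Poisson 95% intervals (bars), KO left of Ctrl; the dotted line marks 10 tags, the lowest summit in the KO PHF2 list. The intervals of KO and Ctrl overlap at Foxo1, Foxo3 and Ddit4, and all 12 Ctrl summits, from 12 to 31 tags, lie above the line.

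The absence of a KO peak means only that none was called, since KO tags at the other sites were not measured. Over the whole Ctrl list, the share of peaks with a KO counterpart was higher among peaks with more tags. Of the 190 Ctrl peaks with 14 tags, as at the Trim63 start, 2 (1.05%, Wilson 95% interval 0.289 to 3.76) were overlapped by a KO peak, and of the 143 with 12 tags, as at Nedd4, 1 was (0.699%, 0.124 to 3.85). Of the 73 with 20 tags, as at Gadd45a and Ddit4, 15 were (20.5%, 12.9 to 31.2), and of the 15 with 29 tags, as at Zfand5, 6 were (Wilson interval 19.8 to 64.3%). Fbxo30, the strongest ligase gene by fold enrichment, had 17 tags, and 4 of 106 Ctrl peaks with that number had a KO overlap (3.77%, 1.48 to 9.30). Of the 12 Ctrl peaks at these genes 3 had a KO overlap, and of the whole Ctrl list 7.03% did.

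**Figure D4:**
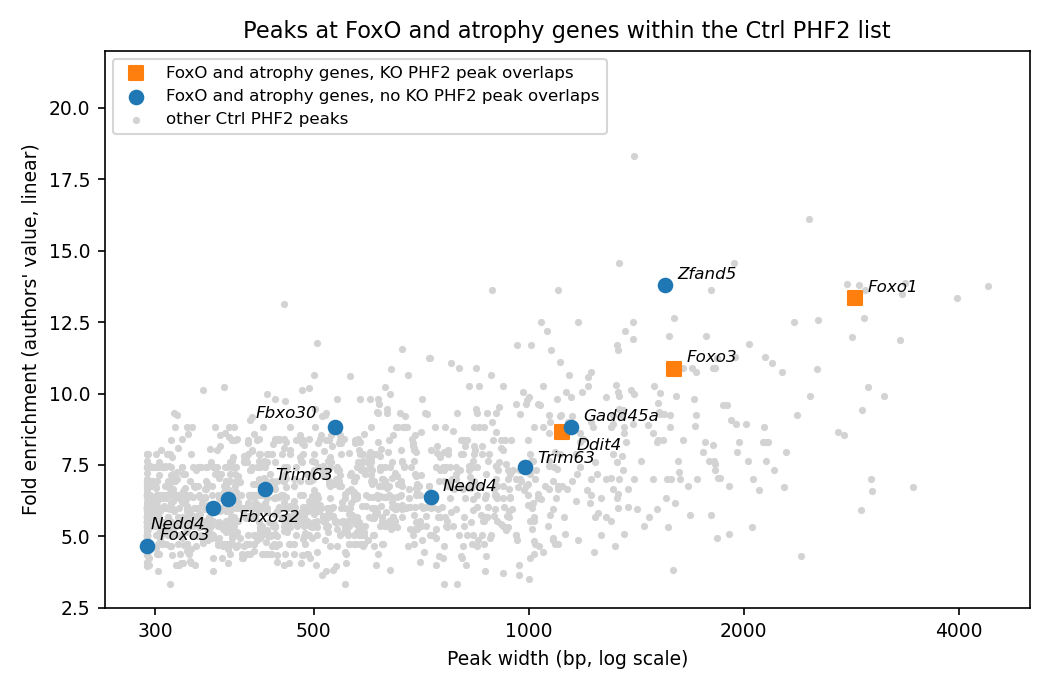
Peak width (bp, log scale) against fold enrichment (linear) for the 1621 Ctrl PHF2 peaks, with the 12 at FoxO and atrophy genes coloured by whether a KO PHF2 peak overlaps them. Foxo1, Foxo3 and Zfand5 lie at the wide and strong end, and the second peaks of Foxo3, Trim63 and Nedd4 lie among narrow peaks.

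In the order of fold enrichment the Ctrl peaks ran from Zfand5 and Foxo1 through Foxo3, Fbxo30, Gadd45a, Ddit4, Trim63, Nedd4 and Fbxo32, taking the strongest peak of each gene. Neighbours in this order had overlapping tag intervals. The interval of Foxo1 (from 21.1) lay just above that of Nedd4 (up to 21.0), and that of Zfand5 (from 19.4) still overlapped it. The 12 peaks had a median fold enrichment of 8.04 and a median width of 858 bp, against 6.37 and 505 bp for the 1609 other Ctrl PHF2 peaks, and their median tags were 18 against 15. These are descriptions, as the genes were chosen with their peaks known. For the 5 kb window, the outermost peak inside it was the upstream one of Foxo3, 0.938 kb beyond the gene, at a fold enrichment of 4.65. The nearest Ctrl peak outside any window was 42.1 kb from Trim63, at Extl1, with 5.78.

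The position of the peaks relative to the start was not used in the choice of peaks beyond the window. All 12 Ctrl summits lay within 2 kb of a start (for Fbxo32, of the nearer gene end), at a median distance of 302 bp. Of these, 9 lay on the gene side of the start used. The Fbxo30 summit lay before its start but inside the gene body. All 3 KO summits at the genes lay on the gene side as well. In the KO PHF2 list as a whole 68.3% of summits (Wilson interval 60.8 to 75.01) lay within 2 kb of a protein-coding start, and 86.4% of those on the gene side. In the Ctrl PHF2 list the shares were 71.3% (69.1 to 73.5) and 78.4%. These list shares count all peaks, also those far from genes, and any of 21263 starts. The peaks at the genes lay near a gene by choice and were measured to its own start, so the shares are not like for like. The start itself was covered by 1 of the 3 KO peaks at the genes, that of Foxo3, and by 9 of the 12 Ctrl peaks.

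The promoters of these genes differed widely in CpG content. Over the 250 bases before the start, CpG counts were 40 at Fbxo30, 35 at Zfand5, 32 at the first start of Nedd4, 31 at Foxo3, 22 at Ddit4, 20 at Foxo1, 11 at Gadd45a, 9 at the second start of Nedd4 and 4 at Trim63, and each of these windows but that of the second Nedd4 start lay at least in part under a Ctrl PHF2 peak. The medians were 30.5 for the 28 promoters under a KO PHF2 peak, 23 for the 683 under a Ctrl PHF2 peak and 10 for all 21263 protein-coding promoters. Trim63 was therefore at the low end of promoters with a Ctrl peak: 9 of those 683 (1.32%) had as few CpG or fewer, against 33.7% of all promoters. The sequences above show this, with capitals spread over Foxo3 and Zfand5 and in few places in Trim63.

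**Figure D5:**
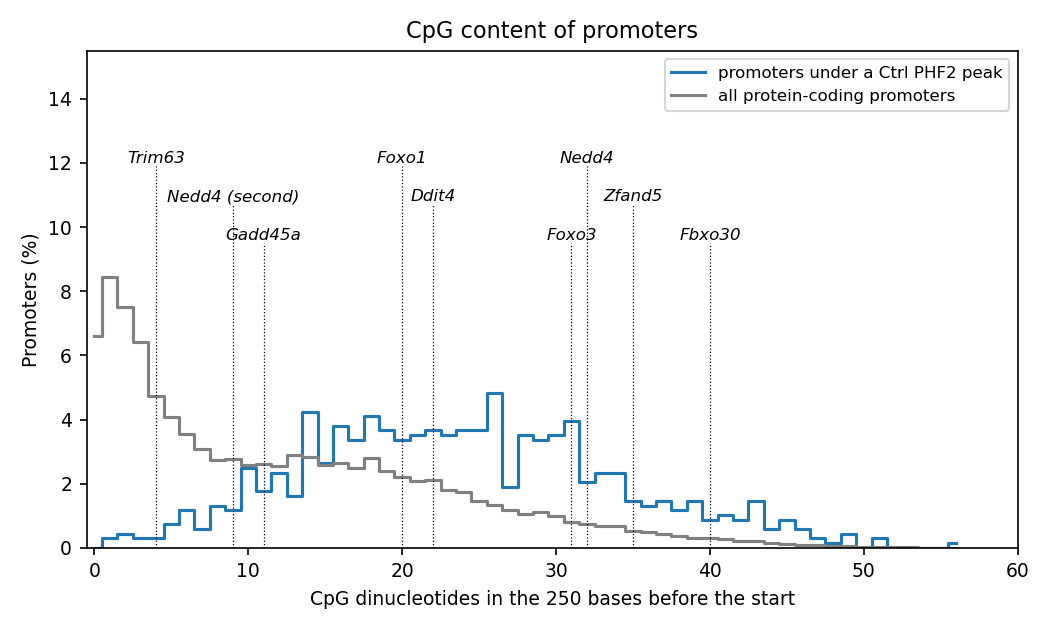
Share of promoters (%) by the number of CpG dinucleotides in the 250 bases before the start, for promoters under a Ctrl PHF2 peak and for all protein-coding promoters, with dotted lines at the genes described. Trim63 lies at 4, where promoters under a Ctrl peak are rare, and Foxo3, Nedd4, Zfand5 and Fbxo30 lie at 31 or more.

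Motifs were searched on both strands of the same 250 bases. Trim63 was the only one of the 8 genes with a promoter entry to hold the 8-base FoxO motif TTGTTTAC, from base 195 to base 188 before the start, which also contains the shorter forkhead core TGTTTAC. The FoxO motif was in 1.17% of promoters under a Ctrl PHF2 peak and in 0.776% of all protein-coding promoters, while the shorter core was in 1.61% and 2.62%. Trim63 was also the only one with a TATA box (TATAAA), at bases 31 to 26 before the start, a motif in 4.10% of promoters under a Ctrl peak and in 11.6% of all promoters. The GC box GGGCGG, the core of Sp1 family sites, was found 5 times each in Foxo3 and Zfand5 and 4 times in Fbxo30, and not in Trim63. It was in 72.0% of promoters under a Ctrl PHF2 peak and in 42.6% of all promoters. Foxo1 held the CCAAT box 3 times, Ddit4 2 times, and Fbxo30, Gadd45a and the second Nedd4 window 1 time each. That motif was in 29.1% of promoters under a Ctrl PHF2 peak and in 35.4% of all promoters. These matches are letters in a window and do not show that a factor binds there.

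The wider pathway was described with lists written by hand with earlier results of these data known. Of 45 other genes of FoxO signalling, from the insulin and IGF receptors through AKT to FoxO partners and targets, 2 had a KO PHF2 peak and 14 a Ctrl PHF2 peak in the gene body plus 5 kb, or 4.44% and 31.1%, against 0.713% and 7.38% of all protein-coding genes. With a −log10 q of at least 3 the KO count was 1. Both KO genes lay upstream of FoxO. Pik3r1, the regulatory subunit of PI3-kinase, had a highest fold enrichment of 7.32 in KO and 8.62 in Ctrl, and the receptor gene Igf1r 5.78 in KO and 5.05 in Ctrl. Among the strongest Ctrl peaks were those at Mapk14, the p38α kinase (12.2), the insulin receptor substrate gene Irs2 (9.07) and Pik3r1. Of 30 further muscle ubiquitin ligase genes and paralogues of the genes above, 1 had a KO PHF2 peak, the SCF scaffold gene Cul1 (6.64, with 6.99 in Ctrl), and 7 had a Ctrl PHF2 peak, beside the same shares over all genes. The strongest of these were at Zfand4 (9.32), Gadd45g (7.64), the Ddit4 paralogue Ddit4l (7.46) and Cblb, a ligase that acts on IRS1 in unloaded muscle (7.32). No gene of either list had an IgG peak.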

How the data were processed

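Peak lists of 4 CUT&RUN libraries were used, 1 per group, with groups read from the titles in the labels. Bowtie2, MACS2 and mm10 are named in the submitters' processing notes. Their versions and settings, how duplicates were treated and which library served as control in calling are not stated there. Each list was called on 1 library, per the peak names. The deposited lists follow the narrowPeak layout with 10 columns. Fold enrichment, as deposited, is linear. By MACS2's formula it is the scaled tags at the summit plus 1, over the local background plus 1. It is therefore smaller than the plain ratio of tags to background. The scaling differed between the lists (factors below), so KO and Ctrl folds are not on quite the same scale. The −log10 p and −log10 q of the same place are likewise the authors' values. The score column, by the deposited values, repeats the −log10 q as a whole number and was left aside. Starts were made 1-based, and overlap meant at least 1 bp. Genes, starts and promoter sequences came from RefSeq tables of GRCm38.p6.

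Tags were solved from MACS2's formulas for fold and Poisson p. All 84 KO and 309 Ctrl distinct pairs of values gave whole tags (within 0.005) times a single factor per list, 0.609 in KO and 0.649 in Ctrl. For 5 Ctrl pairs more than 1 solution existed, none at the genes described. The method was tested on data simulated with the same formulas, which checks the solving and cannot show that the lists follow those formulas. The library size ratio assumes equal fragment lengths. PCR copies may be among the tags, and the Poisson, Wilson and ratio intervals cover only counting error. The members, lists and named genes (all members, list genes with a KO peak and the 4 strongest Ctrl genes per list) were chosen with earlier results of these data known, and 1 gene that the rule names is not reported here. Alternatives changed the window, the q threshold, the merging of peaks, the overlap rule, the length or p threshold of the Ctrl list and the use of the summit alone. Computation used matplotlib 3.10.9, pandas 2.3.3, SciPy 1.17.1 and NumPy 2.4.6 under Python 3.11.15.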

Additional observations from a re-analysis of the deposited data

How the results depend on the processing

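Of 67 alternatives over the counts and medians, 63 stayed within 1.5 times the count or within the interval of the median, and 4 moved. Several could hardly move. The IgG count was 0, no Ctrl peak at the genes lay more than 0.938 kb beyond its gene, and the intervals of the medians came from 12 peaks. When the Ctrl PHF2 list was shortened to the 161 strongest peaks by fold enrichment, as many as in KO, 3 of the 10 genes had a Ctrl peak (Foxo1, Foxo3 and Zfand5), with 3 peaks in all. With a reciprocal overlap of at least 50%, 0 Ctrl peaks at the genes were overlapped by a KO peak, since the KO peaks covered under 33% of the Ctrl peaks. With a −log10 q of at least 3, 1 gene of the FoxO signalling list had a KO peak. Alternatives for the pathway lists were added after the data had been seen. No paired analysis was possible because no group had more than 1 library, which also meant that none could be left out.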

Other observations

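Among 123 other protein-coding genes with a peak in both PHF2 lists in the gene body plus 5 kb, likeness was measured as the Euclidean distance between highest fold enrichments in the KO and Ctrl lists, which is 1 library each. The nearest to Foxo1 was the adhesion receptor gene Adgrl2 (11.6 in KO and 11.9 in Ctrl, distance 1.51), followed by the transcription factor gene Sox4 (7.96 and 13.9, distance 3.40). Foxo3 was closest to Sema6d, a semaphorin (7.09 and 10.6, distance 0.547), and Nrp1, a semaphorin and VEGF co-receptor (6.76 and 10.9, distance 0.782). Ddit4 was closest to Pik3r1 (7.32 and 8.62, distance 0.227) and Fam72a (7.74 and 8.29, distance 0.425).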
